A study of Drosophila melanogaster with 20 samples.

Results

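RAL195 is an inbred line of the Drosophila Genetic Reference Panel (DGRP), a collection of fly lines each bred from wild-caught parents by repeated brother-sister mating, so that flies of a line are nearly alike in genotype while lines differ. Its members here were the 2 libraries whose count columns carry that line name, of 20 libraries in all, and they were set against the 18 libraries of the other 9 lines. RAL195 was classed by the submitters as detrimental in its outcome of preconditioning, an earlier mild stress that changes how an animal fares under a later one. The same class held RAL304, RAL335, RAL737 and RAL819, and the beneficial class held RAL69, RAL93, RAL359, RAL387 and RAL409. The study left RAL409 out, whereas here it is 1 of the other 9 lines. All flies were males 2 days old, reared at 25 °C, with no transgene or other engineered allele named. Every line gave 1 pool of 10 whole flies frozen without heat shock and 1 pool frozen straight after 30 minutes at 35 ± 1 °C. RAL195 therefore has 1 library per treatment and no second pool, and every test below takes its lone library to vary as the other 9 lines vary.

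Lines of this panel differ at many sites in and around genes, and variants near a gene are known to alter its transcript level in the same way under many conditions. Heat shock works on another time scale. Misfolded protein frees the heat shock factor Hsf, which drives transcription of the chaperone genes within minutes, while many other transcripts decline. A line can therefore stand apart in steady levels, in the response, or in both, and the libraries allow these to be looked at separately.

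RAL195 gave 28.4 M counts without heat shock, where M stands for 1e+06, and 26.9 M with it, against 22.8 to 27.9 M and 18.4 to 33.7 M in the other lines. It had the most genes with a count in either treatment, 15867 and 15843, against 15576 to 15793 and 15487 to 15840. The male dosage compensation RNA lncRNA:roX1 was at 431 and 389 normalised counts per M (CPM), within the 281 to 590 CPM of the other libraries. A second such RNA, lncRNA:roX2, was at 10.5 and 11.9 CPM, within 7.01 to 14.5 CPM. Of the female yolk protein genes, Yp1 was at 0.127 and 0.159 CPM and Yp2 at 0.413 and 0.716 CPM. Yp3 was higher, at 9.43 and 9.27 CPM, within the 6.09 to 10.7 CPM of the other libraries. Genes of the mitochondrial genome took 5.91% of RAL195 counts without heat shock, within the 2.92 to 6.90% of the other lines, and 5.83% with it, above their 1.4 to 5.0%. The part of these library differences in the results below was not tested. Across genes, the departures of RAL195 from the mean of all lines in one treatment correlated with those in the other at r = 0.727, within the 0.567 to 0.819 of the other lines, and at most at 0.015 with another line.

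Few genes separated RAL195 from the other lines beyond the spread among those lines. In edgeR's quasi-likelihood test with Benjamini-Hochberg adjustment and a threshold of 0.05, 10 genes (0.0682% of 14659 tested) were higher without heat shock and 3 (0.0205%) were lower. After heat shock, 5 of 14753 genes (0.0339%) were higher and 3 (0.0203%) were lower. In both treatments and in the same direction, 4 of 14481 genes (0.0276%) were higher and 2 (0.0138%) were lower. These 6 genes were ppk17, CG1273, CG11586 and lncRNA:CR43453 on the higher side and CG30466 and CG13725 on the lower side. Genes named for level also had to lie outside the range of the other lines in both treatments. The lack of overlap given for them below is therefore a description and no further support. lncRNA:CR43453 reached the count minimum of 10 in no other line, so it entered the test through RAL195 and had to differ. With the minimum asked of all libraries of a treatment, a setting added after the data were seen, 5 genes passed in both treatments, of which 3 were higher. At an unadjusted edgeR p under 0.05 there were 445 of 14659 genes without and 426 of 14753 with heat shock. Both shares are below the 0.05 that would be reached if no gene differed. A single edgeR fit over all 20 libraries with treatment as a covariate, which counts both libraries of a line as independent, called 107 genes. With line as a random effect in limma-voom the same model called 65 genes, among them all 6. Of the 65, 59 lay outside the range of the other lines in both treatments, beside 4.85% of all genes tested. The calls and the range come from the same libraries, so this overlap is no separate support.

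**Figure D1:**
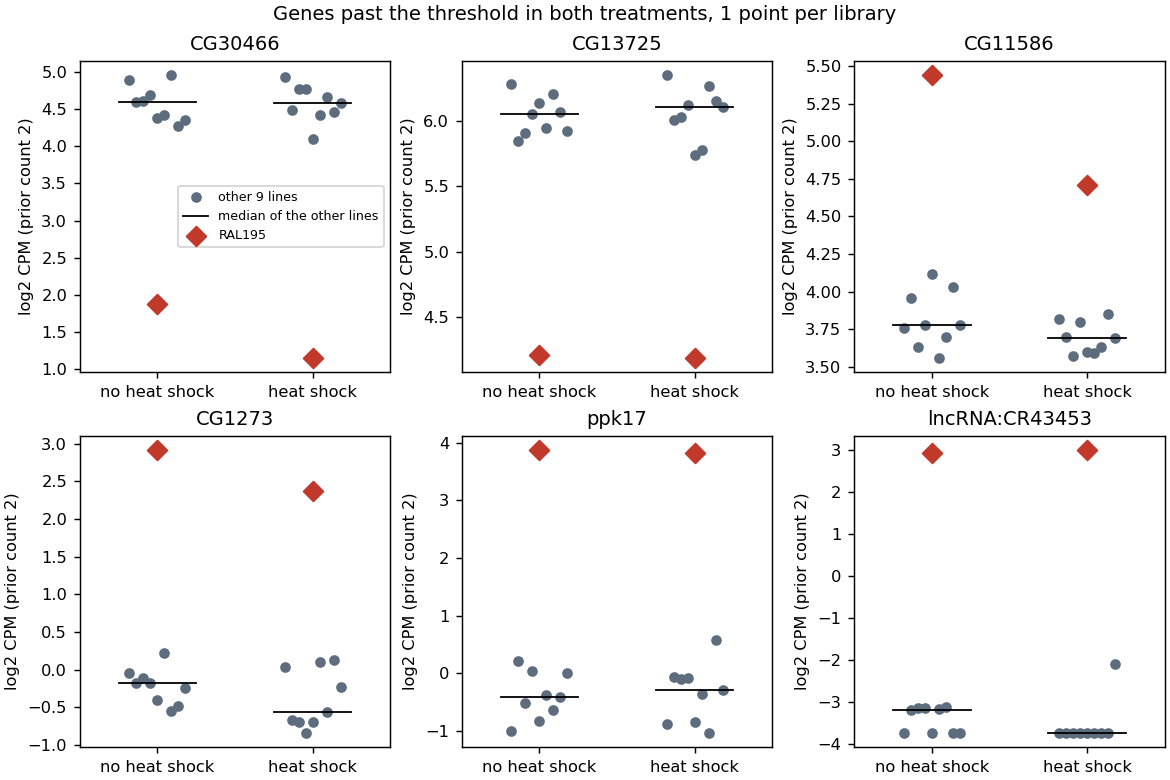
Transcript level in log2 CPM (y axis, prior count of 2) of the 6 genes past the threshold in both treatments, without and with heat shock (x axis). Each grey point is 1 of the other 9 lines, black bars are their medians, and red diamonds are RAL195, which lies below all points for CG30466 and CG13725 and above all points for the other 4 genes.

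ppk17 had a clear excess in RAL195. It belongs to the pickpocket family of degenerin/epithelial sodium channel subunits, several of which serve touch, salt or pheromone sensing in flies. The gene lies on arm 2L (BDGP6, 16758184 to 16760554, minus strand) and overlaps yellow-b on the other strand. Without heat shock RAL195 had 459 counts, or 14.6 CPM, and the other lines had 0.428, 0.676 and 1.08 CPM (lowest, median and highest). After heat shock RAL195 had 14 CPM and the other lines 0.414, 0.742 and 1.42 CPM. The RAL195 library was thus far above all 9 others in both treatments, with no overlap. The log2 difference was 4.34 ± 0.33 (SE, 1 line against 9) without heat shock (edgeR adjusted p = 0.000294) and 4.20 ± 0.39 with it (edgeR adjusted p = 0.00317). The partner on the other strand, yellow-b, stood at 25.9 CPM in RAL195 without heat shock beside a median of 25.4 CPM, and its log2 difference was 0.11. Among the other pickpocket genes tested, ppk18 was also above every other line in both treatments, by a gap of 0.14 on the log2 scale, and ppk19 was below by 0.03. Neither passed the test.

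A transcript close to silent elsewhere was present in RAL195. lncRNA:CR43453, a long non-coding RNA on arm 3R (21465701 to 21466492, plus strand), overlaps no other annotated gene. RAL195 gave 236 counts without heat shock, or 7.49 CPM, and the other 9 lines gave 5 counts together, with none in 4 of their libraries. After heat shock RAL195 gave 198 counts, or 7.88 CPM, and the other lines gave 4 counts together, all in RAL819. Per counted read, the level in RAL195 was 375 times that of the pooled other lines without heat shock (95% interval 159 to 1170) and 467 times with it (180 to 1730). These exact binomial intervals cover counting error only. As no other line reached the count minimum, the test of this gene is no support for the difference, and its counts are given as a description. Fancm, the next gene tested along the arm, was at 51.0 CPM in RAL195 and at a median of 51.0 CPM in the other lines without heat shock.

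Neighbouring genes on arm 3L stood out together. CG11586 (4261297 to 4262470, minus strand) and CG1273 (4263719 to 4277778, plus strand) are 1.2 kb apart, and no role is given here for either. CG11586 overlaps CG1309 on the other strand, which was at 88.8 CPM in RAL195 beside a median of 86.4 CPM without heat shock, and CG1273 overlaps CG33764 on the other strand. CG11586 was at 43.2 CPM in RAL195 without heat shock, and the other lines were at 11.7, 13.6 and 17.3 CPM (lowest, median and highest). After heat shock it was at 26.2 CPM against 11.8, 12.8 and 14.4 CPM. The lowest RAL195 value was above the highest value of any other library. Its log2 difference was 1.62 ± 0.17 (edgeR adjusted p = 0.00382) without heat shock and 1.01 ± 0.14 (edgeR adjusted p = 0.0332) with it.

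CG1273 was at 7.43 CPM in RAL195 against 0.607, 0.809 and 1.09 CPM without heat shock, and at 5.09 CPM against 0.484, 0.602 and 1.02 CPM with it. The groups did not overlap. The log2 differences were 3.22 ± 0.29 (edgeR adjusted p = 0.00102) and 2.81 ± 0.39 (edgeR adjusted p = 0.034). Each of the heat shock calls was close to the threshold: the edgeR adjusted p of CG1273 ran from 0.0506 to 0.0766 when any 1 of the 9 other lines was left out, and that of CG11586 from 0.0471 to 0.0766. VhaM9.7-a, the gene tested between them and a subunit of the vacuolar proton pump, was at 18.6 CPM in RAL195 without heat shock beside a median of 12.3 CPM and a highest value of 15.8 CPM, which did not pass the test (log2 difference 0.60, edgeR adjusted p = 1).

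Within 300 kb on each side of CG11586, 78 genes with a mean of at least 1 CPM were tested, of which 6 were above every other line in both treatments and 0 were below. The shares over all genes tested were 2.87% above and 1.98% below. The window was placed on CG11586 because that gene was above, so CG11586 and CG1273 were among the 6 by choice of place. The other 4, picked out after their values were seen, were the adjacent pairs Gr64a with Gr64f and nab with mas. Gr64f, a taste receptor for sugars, was at 5.14 CPM in RAL195 against 0.606 to 1.69 CPM without heat shock and at 5.09 CPM against 0.889 to 1.58 CPM with it. nab, a cofactor of transcription factors, was at 4.26 CPM against 0.445 to 1.03 CPM without heat shock, which passed the test there (log2 difference 2.55 ± 0.39, edgeR adjusted p = 0.0481). It lost this call when any 1 of the other lines was left out. Most genes of the interval lay near a difference of 0, and those above every other line in both treatments formed separate pairs with other genes between them.

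**Figure D2:**
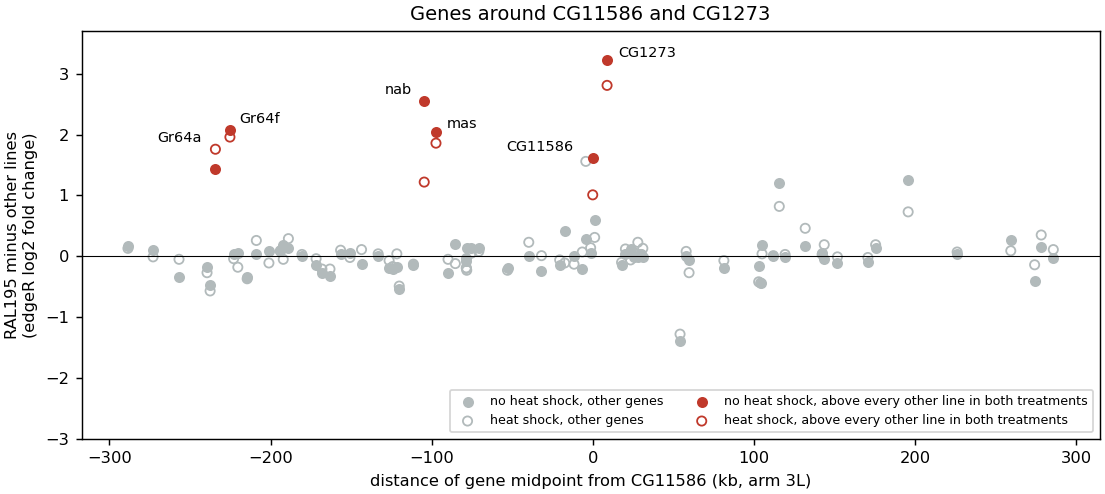
Difference between RAL195 and the other 9 lines (y axis, edgeR log2 fold change) for the 78 genes within 300 kb of CG11586, by distance of the gene's midpoint from that of CG11586 in kb (x axis). Filled points are libraries without and open points with heat shock, and the 6 red genes lay above every other line in both treatments.

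On the lower side, CG30466 and CG13725 had a much reduced transcript level in RAL195. CG30466 (arm 2R, 15568960 to 15573170, plus strand) was at 3.59 CPM against 19.3, 24.1 and 31.0 CPM without heat shock, and at 2.15 CPM against 17.1, 24 and 30.6 CPM with it. RAL195 was below all 9 others each time, and the lowest other value was several times the RAL195 value. The log2 differences were −2.74 ± 0.32 (edgeR adjusted p = 0.00674) and −3.50 ± 0.34 (edgeR adjusted p = 0.00317). The gene overlaps Flo1, Cdk5 and CG8204 on the other strand, with log2 differences of −0.28, −0.28 and 0.03 without heat shock. None of the 3 was outside the range of the other lines in both treatments, and Flo1 was at 28.8 CPM in RAL195 without heat shock, where the lowest other line had 29.5 CPM.

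CG13725 (arm 3L, 17324618 to 17325518, minus strand) was at 18.4 CPM in RAL195 against 57.5, 66.0 and 77.4 CPM without heat shock, and at 18.2 CPM against 53.3, 68.8 and 81.6 CPM with it. The groups did not overlap, and the RAL195 level was almost the same in both treatments. The log2 differences were −1.84 ± 0.20 (edgeR adjusted p = 0.00449) and −1.89 ± 0.24 (edgeR adjusted p = 0.0276). After heat shock the edgeR adjusted p reached 0.0688 when single lines were left out, and the call was lost without RAL93, RAL359, RAL387, RAL737 or RAL819. The odorant receptor gene Or74a, 2.2 kb away, lay on the opposite side, above the other lines by 0.07 on the log2 scale at 0.953 CPM.

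ppk17 and CG30466 kept their calls in both treatments whichever of the 9 lines was left out. CG11586, CG1273, CG13725 and Rif1 did so without heat shock. Against only the 4 other detrimental lines, no level difference passed the test in either treatment, although the log2 differences kept their sign and nearly their size: that of ppk17 without heat shock was 4.35 (edgeR adjusted p = 0.0657).

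Further genes passed the test in 1 treatment. Rif1, which in flies restrains replication of heterochromatin, was at 17.6 CPM in RAL195 against 2.39, 3.71 and 4.78 CPM without heat shock (log2 difference 2.26 ± 0.27, edgeR adjusted p = 0.00796), and at 9.79 CPM against 2.07, 2.61 and 4.69 CPM with it (1.73 ± 0.36, edgeR adjusted p = 0.229). Cap-D3, a subunit of the condensin II complex that compacts chromosomes, was at 20.5 CPM against 5.95 to 9.61 CPM without and 22.8 CPM against 6.36 to 10.4 CPM with heat shock. Its log2 differences were 1.48 ± 0.22 (edgeR adjusted p = 0.0469) and 1.42 ± 0.23 (edgeR adjusted p = 0.0751). Both genes lay above every other line in both treatments, so passing in 1 treatment does not show that their difference depended on heat shock, which was not called by the test of the response (log2 −0.52 and −0.05, edgeR adjusted p = 1).

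CG17078 (37.6 CPM against 18.4 to 21.8), CG14443 (6.67 against 0.606 to 1.62) and lncRNA:CR44615 (3.33 against 0.0337 to 0.221) completed the genes higher without heat shock. lncRNA:CR44615 had at most 6 counts in any other line there, so it too entered the test through RAL195 alone and had to differ. CG17078 overlaps smo and CG11555 on the other strand, and Cap-D3 overlaps Cox11, CG31915 and genes on the other strand. CG14443 lies within pigs on the same strand, so reads of the overlapping part could be counted for either gene, and pigs was at 87.1 CPM beside a median of 84.5 CPM. CG43149 was lower, at 0.540 CPM against 2.87 to 5.40 CPM. After heat shock lncRNA:CR44912 was higher, at 5.73 CPM against 0.195 to 0.889 CPM, and it was at 4.26 CPM against 0.473 to 1.34 CPM without. All of these were on the same side of every other line in both treatments. Several calls without heat shock were lost when other lines were left out 1 at a time. That of CG14443 was lost without any 1 of 8 lines, those of Cap-D3 and CG43149 of 7, and that of CG17078 of 5.

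nclb, a gene of chromatin and ribosomal RNA transcription in flies, passed on the lower side after heat shock. It was at 8.76 CPM in RAL195 without heat shock and at 10.9 CPM with it. In the other lines it had a median of 12.3 CPM (9.86 to 15.9) without and 32.0 CPM (26 to 36.3) with heat shock. RAL195 was therefore little below the others before the heat shock and far below all of them after it. Its log2 difference with heat shock was −1.54 ± 0.22 (edgeR adjusted p = 0.0466), and the call was lost when any 1 other line was left out. The test of the response itself gave −1.0 ± 0.28 (edgeR adjusted p = 1).

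By the plain criterion of lying outside the range of every other line in both treatments, 415 genes (2.87% of 14481 tested) were above in RAL195 and 287 (1.98%) were below. The same count for each line ran from 545 genes in RAL359 to 1933 in RAL409, and the 702 genes of RAL195 (4.85%) ranked 8 of 10. The gap to the nearest other line was small in most of them, with a median of 0.13 above and 0.08 below on the log2 scale, and it was under 0.1 in 179 and 163 genes. At the edge of the criterion, sax was just above the other lines at 41.3 CPM in RAL195 and at most 41.0 CPM elsewhere with heat shock, and MnM was just not above them, with 55.8 CPM in RAL195 and in the highest other line without heat shock. A gap of at least 1, which is 2-fold, was reached by 28 genes above and 10 below, against 13 to 37 and 3 to 51 in the other lines. Non-coding RNA genes made up 24.8% of the genes above and 6.62% of those below, beside 11.0% of all genes tested. A gene could pass the filter on low counts through any 1 library. If it passed through RAL195 alone and lay outside the range, it was on the upper side. The part of this in the shares above was not tested. The genes above had a median mean level of 4.16 CPM, those below 27.7 CPM and all tested genes 15.7 CPM.

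**Figure D3:**
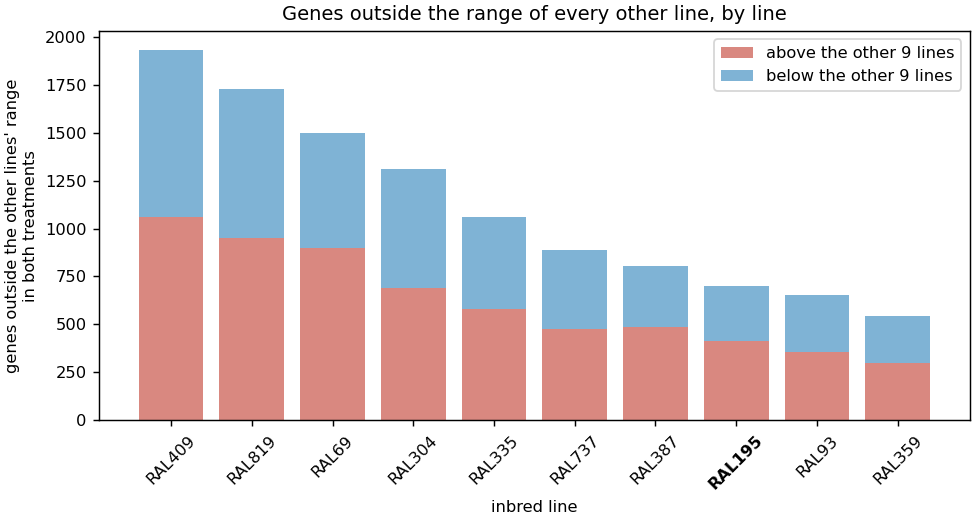
Number of genes (y axis) that lay above (red) or below (blue) all of the other 9 lines in both treatments, for each of the 10 lines (x axis), of 14481 genes tested. RAL195, with 415 and 287 genes, has the third smallest bar.

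The genes with a gap of at least 1 included several groups with known roles, given here as a description chosen after their values were seen. Ccp84Aa and Ccp84Ab, adjacent cuticle protein genes 1.2 kb apart on arm 3R, were at 2.73 and 9.18 CPM in RAL195 without heat shock, where the highest other lines had 0.667 and 2.67 CPM. Sse, the separase that releases sister chromatids, was at 5.02 CPM against at most 1.61 CPM. The ionotropic receptor gene Ir60b was at 1.40 CPM against at most 0.413 CPM. On the lower side, Obp57a, an odorant-binding protein gene, was at 4.32 CPM against 10.1 to 50.2 CPM without heat shock and at 2.07 CPM against 6.43 to 40.8 CPM with it. Sodh2, a sorbitol dehydrogenase gene, was at 2.03 CPM against 5.66 to 15.6 CPM. Cp15, an eggshell protein gene, was at 0.0635 CPM against 0.331 to 6.82 CPM. None of these 7 genes passed the test.

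Outside-range genes were spread over the genome, at 5.77% of tested genes on 2L, 4.50% on 2R, 5.29% on 3L, 5.19% on 3R and 3.29% on X. Runs of adjacent tested genes on the same side numbered 28 above and 9 below, and all but 1 were pairs. The exception was 5 adjacent genes on arm 3R (9684469 to 9705417) that were all above: eca, CG18542, Unc-115b, CG32939 and Unc-115a. eca encodes a p24 family protein of vesicle transport, and the Unc-115 genes encode actin-binding proteins related to each other, so reads could be shared between them. Unc-115a was at 351 CPM in RAL195 against 89.4, 221 and 273 CPM without heat shock, and at 381 CPM against 130, 216 and 317 CPM with it. Unc-115b was at 16.4 CPM against at most 11.0 CPM, eca at 84.5 CPM against at most 70.2 CPM, CG18542 at 14.3 CPM against at most 13.7 CPM and CG32939 at 15.2 CPM against at most 12.5 CPM, all without heat shock. The gaps over both treatments were 0.06 to 0.40, and none of the 5 genes passed the test.

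No member of any of 34 gene lists with at least 5 tested members passed the test of level in either treatment. Over all genes, the shares called were 0.0682% higher and 0.0205% lower without heat shock, and 0.0339% and 0.0203% with it. At such shares few or no list members would be called, so the absence of calls does not set the lists apart. The lists had 1121 tested members in all, of which 25 lay above and 19 below the range of the other lines. The list of taste, odorant and ionotropic receptors had 8 of 96 tested members above and 1 below, beside 2.87% and 1.98% of all genes. Its median log2 difference was −0.07 without and 0.01 with heat shock, against −0.02 and −0.03 over all genes tested. The members above were Gr64a, Gr64f, Ir60b, Or1a, Or23a, Or67b, Or74a and Or83c. Each was at 5.14 CPM or less in RAL195 without heat shock. The cells of the sense organs are a small part of a whole fly, and a difference in the number of cells of a type cannot be told apart from one in RNA per cell in these libraries.

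The mean level of the chaperone list in RAL195 was slightly below that of every other line without heat shock and within their range with it. The mean log2 CPM over 32 tested members was 6.01 in RAL195 and 6.04, 6.11 and 6.31 (lowest, median and highest) in the other lines. With heat shock it was 9.74, against 9.71, 9.79 and 10.02. Of the 32 members, 1 lay above and 3 below every other line in both treatments (3.12% and 9.38%), beside 2.87% and 1.98% of all genes. Hsc70-1, a constitutive member of the Hsp70 family, was at 165 CPM against 259 to 378 CPM without heat shock, and with heat shock it was again below the other lines, which were at 282 to 356 CPM. Hsc70-5, the mitochondrial Hsp70, and Cdc37, a co-chaperone of Hsp90, were below by 0.01 and 0.03 on the log2 scale, and l(2)efl, a small heat shock protein, was above by 0.02. The list's median log2 difference was −0.10 without and −0.07 with heat shock.

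Histone methylation is named in the study's title. Of 30 tested members of that list, 1 was above and 1 below the other lines (3.33% each), close to the shares of all genes, 2.87% and 1.98%. ash2, a subunit of the complexes that methylate histone H3 at lysine 4, was at 30.3 CPM against 15.6 to 21.5 CPM without heat shock and at 27.0 CPM against 14.1 to 23.6 CPM with it. Kdm4A, a histone demethylase, was at 11.9 CPM against 16.3 to 22.4 CPM and at 8.99 CPM against 14.3 to 23.3 CPM. The germline gene piwi, which guides silencing of transposons with small RNAs, was at 7.49 CPM against 1.59 to 3.71 CPM without and 6.33 CPM against 1.64 to 4.20 CPM with heat shock. The list of piRNA pathway genes, 25 tested, had no other member outside the range, which makes 4% above beside 2.87% of all genes. ash2, Kdm4A and piwi lay outside the range without passing the test.

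In most genes the heat shock response of RAL195 had the sign seen in the other lines. In the other 9 lines, 2206 of 13648 genes (16.2%) rose and 2656 (19.5%) fell in an edgeR fit with line as a block. RAL195 took no part in that fit. Of the genes that rose, 2019 (91.5%) had a higher level with heat shock in RAL195, and of those that fell, 2361 (88.9%) had a lower level. When each of the other lines was held out in the same way, these shares ran from 86.0 to 95.6% and from 82.3 to 94.4%. Of the 427 genes that changed at least 2-fold in the other lines, 417 had the same sign in RAL195. A line through these genes had a slope of 0.94, within the 0.88 to 1.03 of the other lines, and r across genes was 0.955. By its own ratio of 1 library to 1, for which there is no test, RAL195 had 488 genes at least 2-fold higher (3.37% of 14481) and 243 at least 2-fold lower (1.68%), against 451 to 817 and 268 to 718 in the other lines.

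**Figure D4:**
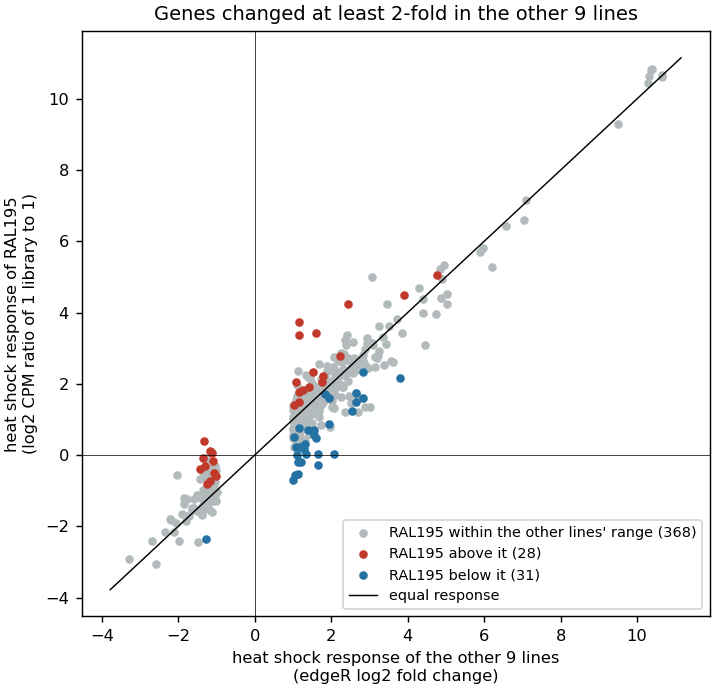
Heat shock response of RAL195 (y axis, log2 CPM ratio of its 2 libraries) against that of the other 9 lines (x axis, edgeR log2 fold change) for the 427 genes that changed at least 2-fold in the other lines. Most points lie along the line of equal response, with 368 inside the range of the other lines, 28 above it and 31 below it.

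The response of RAL195 lay within the range of the other lines in 31 of 32 tested chaperone genes, and that of Hsc70-1, at 0.24, lay above their −0.10 to 0.17 (edgeR adjusted p = 1). The summed Hsp70 copies, 6 near-identical genes whose reads cannot be assigned to single copies with certainty, stood in RAL195 at 27.1 CPM before the heat shock and at 44300 CPM after it. The log2 response was 10.67, against 9.65, 10.48 and 11.22 (lowest, median and highest) in the other lines, and the difference from them was 0.21 ± 0.45 (edgeR adjusted p = 1). Hsp68 reached 8280 CPM from 58.2 CPM, a log2 response of 7.15 against 6.82 to 7.70. Hsp23, a small heat shock protein, had a response of 6.60, next to the lowest other line at 6.59. stv, a co-chaperone of the Hsp70 system, had 4.68, next to the highest other line at 4.71. Hsp26 (6.44), Hsp27 (5.69), Hsp83, the fly Hsp90 (3.83), and DnaJ-1, the fly Hsp40 (4.38), were well inside, as was Hsf itself (0.60). The edgeR adjusted p was 1 for each of these responses. Of 27 genes of this list that rose in the other lines, 27 had a higher level after heat shock in RAL195. The 32 genes do not cover all chaperones. CCT2 and CCT3, not among them, had responses outside the range, at 1.92 against 1.27 to 1.54 and at 1.72 against 1.75 to 1.95. Of all 427 genes that changed at least 2-fold in the other lines, 13.8% had a RAL195 response outside the range.

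The responses of Hsc70-3, Xbp1 and PEK, genes of endoplasmic reticulum stress, lay within the range of the other lines as well. Hsc70-3, the fly BiP, went from 416 to 1470 CPM in RAL195, a log2 response of 1.82 against 1.29 to 2.09. Xbp1, a transcription factor of the unfolded protein response, had a response of 1.05 against 0.64 to 1.12, and PEK, a kinase of that response, 1.18 against 0.91 to 1.59. In level, Xbp1 was at 250 CPM in RAL195 without heat shock, below the 260 to 332 CPM of the other lines. With heat shock it was at 516 CPM, inside their 459 to 609 CPM. The differences from the other lines were 0.24 ± 0.25, 0.18 ± 0.17 and −0.06 ± 0.21 (SE), and the edgeR adjusted p was 1 for each.

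**Figure D5:**
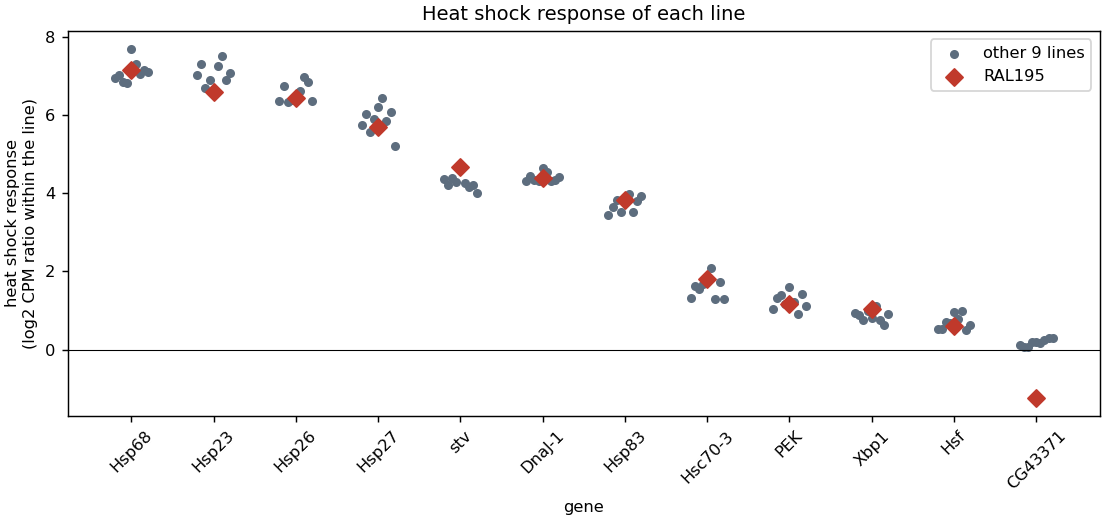
Heat shock response (y axis, log2 CPM ratio within a line) of 11 chaperone and stress genes and of CG43371 (x axis). Grey points are the other 9 lines and red diamonds RAL195, which lies among or at the edge of the other lines for the 11 genes and, at −1.24, below all of them for CG43371.

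The response differed from that of the other lines in 1 gene, CG43371, of 14956 tested (0.00669%). The smallest edgeR adjusted p was 0.0401. An unadjusted edgeR p under 0.05 was reached by 483 genes, a share below the 0.05 that would be reached if no gene differed. CG43371 (arm 2R, 17034045 to 17034609, minus strand) was at 6.76 CPM in RAL195 without heat shock and at 2.82 CPM with it. In the other lines it was at 6.86, 8.46 and 11.8 CPM without and 7.26, 9.81 and 12.9 CPM with heat shock. RAL195 was at the lower edge before and far below all others after the heat shock. Its log2 response was −1.24, whereas all 9 other lines lay between 0.06 and 0.31, and the difference was −1.45 ± 0.19 (edgeR adjusted p = 0.0401). It lies inside a longer gene on the other strand. The library kit marks strand, but whether the counting used it is not given in the sources used here. The call of CG43371 was lost without RAL69, RAL387, RAL409, RAL304, RAL335, RAL737 or RAL819, with an adjusted p of at most 0.119, and without the block for line it had an adjusted p of 1.

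Genes next in order of p did not pass, and they are named after their values were seen. CG15011, 2.1 kb from CG11586, was at 13.6 CPM in RAL195 without heat shock, inside the 6.85 to 15.8 CPM of the other lines. After heat shock it was at 40.2 CPM, and the other lines were at 9.15, 13.9 and 18.1 CPM. Its log2 response of 1.56 was above the −0.07 to 0.45 of the other lines (difference 1.30 ± 0.20, edgeR adjusted p = 0.107). CG7099 showed the same order, at 12.2 CPM before and 49.7 CPM after the shock, a response of 2.03 against −0.05 to 0.97 (difference 1.53 ± 0.28, edgeR adjusted p = 0.37). CG4935 had a response of −0.86 against −0.02 to 0.42 (difference −0.99 ± 0.17, edgeR adjusted p = 0.273).

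Of the 427 genes that changed at least 2-fold in the other lines, the response of RAL195 lay outside their range in 59 (13.8%). When each of the other lines was held out in the same way, this share ran from 15 to 31.3%, so RAL195 had the smallest share of the 10 lines. It lay above the range in 16 and below it in 30 of the 328 genes that rose, and above it in 12 and below it in 1 of the 99 that fell. The response was thus the larger one in 17 genes and the smaller one, or one of opposite sign, in 42. The other lines had 20 to 56 and 18 to 79. On the side of the larger response, CCT2, a subunit of the chaperonin that folds actin and tubulin, had 1.92 against 1.27 to 1.54, from 62.1 to 235 CPM. Cth, an enzyme of the transsulfuration pathway, had 2.05 against 0.53 to 1.68, from 44.7 to 186 CPM. On the side of the smaller response, CCT3, another subunit of the chaperonin, had 1.72 against 1.75 to 1.95. Pdk, a kinase of pyruvate dehydrogenase, had 1.60 against 1.69 to 2.24. CG5550 had a response of opposite sign, −0.53 against 0.17 to 2.27. Fst, a gene known for its induction by cold in flies, was at 14.1 CPM in both RAL195 libraries, a response of 0.01 against 0.24 to 3.02. These genes were picked out after their values were seen, and none passed the test of the response (edgeR adjusted p = 1 each).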

How the data were processed

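Messenger RNA of whole male flies was sequenced with a stranded kit, 1 library per line and treatment. The table deposited by the authors holds raw whole-number counts, with 20 library columns and 17807 FlyBase identifiers. Bowtie2 2.2.9, DESeq2 1.28.1, SAMtools 1.12 and the build BDGP6 appear, without roles, in the submitters' processing notes; the counting tool and annotation are not given in the sources used here. Symbols and positions came from Ensembl release 115 of BDGP6, in which 97 identifiers had no match. The deposited comparison tables of the classes were not used.

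Tests used R 4.3.3 with edgeR 4.0.16 quasi-likelihood F tests, TMM scaling, filterByExpr with a minimum count of 10, which a gene could meet in RAL195 alone, and Benjamini-Hochberg adjustment over all genes tested. Level was compared within each treatment (1 line against 9). The response difference was the interaction of treatment and RAL195 over 20 libraries with line as a block, since both libraries of a line share its genotype (correlations of 0.567 to 0.819 across genes). Standard errors were taken from the F statistic. Log2 CPM used a prior count of 2. With 1 pool per line and treatment, p-values measure the spread between lines, and counts set counting error only.

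Genes named by rule were those past the threshold in both treatments and outside the other lines' range, those past it for the response, and a fixed set of chaperone and stress genes; genes past it in 1 treatment are named as well, and others are marked. The tests were tried on simulated counts. Alternatives were DESeq2 1.42.0, limma-voom (limma 3.58.1), other scaling, filters and models, and lines left out. The line, the lists and the rules were chosen with earlier results of these data known.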

Additional observations from a re-analysis of the deposited data

Results flagged for a closer look

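Among 44 sets of 9 values from the other lines that were checked, those of the called genes and of the chaperone responses, 2 had a line set apart by a gap wider than chance gives in 1 of 20 such sets. That is close to the 1 in 20 that chance gives, so neither is taken as a result. Both concern RAL819 after heat shock. In the set of lncRNA:CR43453 any count would have been set apart, since the other 8 values were tied at no count. For lncRNA:CR43453 its level was −2.11 log2 CPM, whereas each of the other 8 libraries had no count, and without this line the edgeR adjusted p with heat shock was 0.176, though no line but RAL195 reached the count minimum for this gene. For lncRNA:CR44912 its level was −1.89 log2 CPM, with the next line at −0.92 and the highest at −0.05, and the gene was called in RAL195 after heat shock with this line left out. That call was lost when RAL69, RAL93, RAL359, RAL387, RAL304, RAL335 or RAL737 was left out, with an adjusted p of at most 0.0688.

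The response of CG43371 in RAL195 differed from that of the other lines by −1.45 ± 0.19 on the log2 scale in the interaction test (edgeR adjusted p = 0.0401). It was lower after heat shock in RAL195 and higher in 9 of 9 other lines.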

How the results depend on the processing

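Directions held: no gene named from a test changed sign under any alternative. With DESeq2 the calls numbered 47 without heat shock, of which 24 were higher, 39 with it, of which 19 were higher, 22 in both treatments, of which 12 were higher, and 4 for the response, and with limma-voom 26, 22, 14 and 0, of which 24, 17 and 12 were higher. Against only the 4 other detrimental lines they numbered 0, 0, 0 and 7. Without RAL409, which the study left out, 5 genes were called with heat shock and 0 for the response. Treatment as a covariate gave 107 genes in edgeR and 65 in limma-voom with line as a random effect. With no replicate block for line, 0 response differences were called. Leaving out each other line in turn gave 8 to 11 calls without heat shock, 3 to 6 with it, 2 to 5 in both and 0 to 11 for the response, the 11 without RAL93. Scaling by library totals called 7909 genes in the heat shock response of the other lines, of which 954 rose, and moved the median response of RAL195 by −0.24 on the log2 scale. The cause of these differences was not tested. Single calls lost: lncRNA:CR43453 with heat shock in DESeq2, CG43149 and CG43371 in limma-voom, CG13725 and CG11586 with heat shock under library totals, and nclb with heat shock when every gene with a count was tested (edgeR adjusted p = 0.051). The count of genes outside the range ran from 578 to 868. RAL195 had 1 library per treatment.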

Other observations

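Some gene lists had their highest or lowest mean level in RAL195, and in none of these did a member pass the test. The mean log2 CPM over 15 tested genes of the mitochondrial genome was 7.51 in RAL195 without heat shock, inside the 6.84 to 7.88 of the other lines, and 7.76 with it, above their 6.93 to 7.55. Its change of 0.25 was above the −0.53 to 0.23 of the other lines. No gene of this list was called in the heat shock response of the other lines. The list of Turandot, JAK/STAT and thioester protein genes, secreted stress and immune factors among them, had a difference in mean of 0.67 between treatments in RAL195 against −0.25 to 0.54 in the other lines, over 17 tested genes. Digestive protease genes had the highest mean of the 10 lines without heat shock, 6.76 against 5.71 to 6.70, and the piRNA pathway genes likewise, 3.24 against 2.94 to 3.16. Redox defence genes had the lowest, 6.59 against 6.61 to 6.81. With heat shock the protease, piRNA and redox lists were inside the range of the other lines. They were at 6.45 (5.49 to 6.96), 3.11 (2.95 to 3.23) and 7.03 (6.98 to 7.25). The chemosensory receptors were highest in both treatments, at −0.33 against −0.85 to −0.37 and at −0.16 against −0.70 to −0.33. Of 34 lists, RAL195 was highest in 3 and lowest in 2 without heat shock, and highest in 5 and lowest in 0 with it. In the other lines these counts ran from 1 to 11 and 0 to 6 without heat shock, and from 0 to 9 and 0 to 11 with it.

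No member lay outside the range of the other lines in both treatments among 19 tested antimicrobial peptide genes, 17 Bomanin and Daisho genes and 27 digestive protease genes. Of 14 genes of carbohydrate digestion, 1 was below, the maltase gene Mal-B1, at 3.24 CPM against 3.60 to 47.8 CPM without heat shock and at 10.4 CPM against 18.9 to 62.4 CPM with it. Of 16 hemocyte genes, 1 was above: Hml, a marker of these blood cells of flies, at 111 CPM against 46 to 88.1 CPM and at 112 CPM against 26 to 96.6 CPM. Of 59 seminal fluid genes, 1 was above: Acp24A4, at 229 CPM against 44.4 to 211 CPM and at 238 CPM against 39.4 to 212 CPM. These genes were chosen after their values were seen, and none passed the test. Over all genes tested, 2.87% were above and 1.98% below.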
